A study of Mus musculus with 6 samples.

Results

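The genes of the integrin, laminin and collagen chains were followed in mouse small intestinal organoids given vehicle or MMK-1, a synthetic peptide that activates the receptor FPR2. Members were the protein-coding genes of the deposited table whose symbols have the form of an integrin alpha or beta chain, a laminin alpha, beta or gamma chain, or a collagen alpha chain. This gave 71 of the 21397 genes in the table, of which 16428 are listed as protein-coding: 38 collagen genes, 24 genes with an integrin-type symbol and 9 laminin genes. One match, Itgb3bp, encodes a centromere protein and no integrin chain, and it is kept apart where integrin genes are described.

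Organoids were grown from small intestinal crypts of Fpr2f/f mice, so that both groups carry the floxed Fpr2 allele. They were embedded in growth factor-reduced Matrigel and collected at day 5, after 1 μmol/L MMK-1 or the vehicle, 0.1% DMSO. There were 3 libraries per group, called Control and MMK-1 here, and each sample is stated to hold organoids of 3 mice. The protocol text and the methods give the dose as 1 μmol/L, whereas the treatment label of the samples gives 1 mM.

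Integrins are receptors of 1 alpha and 1 beta chain that tie the cell to the matrix around it. Laminins are cross-shaped trimers of an alpha, a beta and a gamma chain, and they form the sheet of the basement membrane to which an epithelium attaches, together with a network of type IV collagen. In the intestine the epithelium itself makes some of the laminin chains, while the mesenchyme beneath it is known as the main source of most collagens and of type IV collagen chains. Matrigel is an extract of basement membrane, rich in laminin and type IV collagen protein, which RNA sequencing does not see.

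The table gives FPKM, fragments on a gene scaled to the length of the gene and to all fragments of that library. The fragments behind each value were recovered from the steps of the FPKM values, so that counts of a gene may carry 1 common factor in all libraries, and library totals lay between 35512739 and 37537463 fragments. All 8 epithelial markers looked up, Epcam, Cdh1, Krt8, Krt18, Krt19, Vil1, Cdx2 and Cldn7, were abundant, with a summed FPKM of 3709 to 3748 in Control and 2729 to 2947 in MMK-1 libraries. Of these markers 3 were higher and 3 lower with MMK-1. The summed FPKM of 7 mesenchymal markers other than collagens was 5.76 to 6.19 in Control and 3.55 to 5.20 in MMK-1 libraries, and most of it was Vim. Vim had a mean FPKM of 4.83 in Control and 3.94 in MMK-1 libraries (adjusted p of 0.0491 in limma and 0.124 in the limma fit of every gene above 0 with a pseudocount of 0.1), with overlapping groups, and Pdgfrb fell from 1.10 to 0.265 (adjusted p of 0.000144 in the latter fit). Endothelial markers summed to at most 0.307, with Kdr listed at 0 in every library. Vwf rose from a mean FPKM of 0.0299 to 0.0762 (adjusted p of 0.0129 in the limma fit of every gene above 0 with a pseudocount of 0.1). Pecam1, Tek and Plvap were not called in that fit. Neuronal and glial markers summed to 5.83 to 5.93 in Control and 3.09 to 3.23 in MMK-1 libraries, and most of this was Ret. The 9 leukocyte markers in the table summed to 4.68 to 5.68 in Control and 2.78 to 3.91 in MMK-1 libraries. Myeloid markers of this list did not move together: Cd68 fell from a mean FPKM of 3.17 to 1.15 (adjusted p of 0.000146 in limma), and in the limma fit of every gene above 0 Csf1r fell from 0.152 to 0.00703 (adjusted p of 0.0001) while Cd14 rose from 0.659 to 1.28 (adjusted p of 0.0109). The pan-leukocyte gene Ptprc had a mean control FPKM of 0.00757. MMK-1 replicate 3 stood apart from the other MMK-1 libraries: the SD of its log2 differences was 0.200 and 0.191 against 0.103 between MMK-1 replicates 1 and 2. In bulk RNA, fewer cells of a type and less RNA per cell cannot be told apart.

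Of the 71 genes, 16 had a mean FPKM of at least 1 and entered the test, limma-trend on log2(FPKM + 1) over all 10551 genes that passed this filter. A gene was called where its adjusted p (Benjamini-Hochberg, over all genes of the test) did not exceed 0.05. The 16 genes were 11 integrin genes, Itgb3bp, 3 laminin genes and 1 collagen gene. With MMK-1, 8 of them were higher and 7 lower, and Itgb6 was not called. The same call was made in 73.2% of all genes tested, with 48.5% higher and 24.7% lower, so a call in itself sets no gene apart here. With a fold change of 2 or more required beside an unadjusted p up to 0.05, 1 member, Lamb3, was higher and 0 were lower on the log2(FPKM + 1) scale, beside 3.39% and 3.65% of all genes tested. This scale understates the change of low genes. The number of lower members at this threshold was 3 with a pseudocount of 0.1, for which no share of all genes is given. The groups did not overlap in any of the 16 genes, nor in 76.8% of all genes tested. The median log2 fold change of the 16 genes was 0.02, beside 0.13 for all genes tested. Centring each library on its median took the median of all genes to -0.01, and 4 members were then called higher and 8 lower, beside 33.5% and 37.8% of all genes tested. Without MMK-1 replicate 3, 7 members were called higher and 7 lower, again with no share of all genes beside them.

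The laminin genes did not all go the same way. Lamb3, Lamb2 and Lama5 rose with MMK-1, whereas Lama3 fell. Lama3 and Lamb3 encode chains of the laminin of epithelial hemidesmosomes, and Lama5, Lamb1 or Lamb2 and Lamc1 those of the main laminins of the mature intestinal basement membrane. Lamc1 was also called higher, by a small amount that depends on the scaling. The DNA just before the starts of Lamb3, Lama5 and Lamb2, the 3 laminin genes with the largest increases, is shown here. The values given are of the genes, and none was measured on this DNA. It was taken from the RefSeq promoter table on GRCm38.p6, in which 52 of the 71 members had an entry, and it is written 5′ to 3′ on the strand of the gene. The stretches are chr1:193301744-193301992 on the plus strand, inside the GENCODE extent of Lamb3, chr2:180225860-180226109 on the minus strand and chr9:108479612-108479735 on the plus strand. They end at the RefSeq start or at the first base of a GENCODE exon. Capitals mark matches to the GC box.
Lamb3: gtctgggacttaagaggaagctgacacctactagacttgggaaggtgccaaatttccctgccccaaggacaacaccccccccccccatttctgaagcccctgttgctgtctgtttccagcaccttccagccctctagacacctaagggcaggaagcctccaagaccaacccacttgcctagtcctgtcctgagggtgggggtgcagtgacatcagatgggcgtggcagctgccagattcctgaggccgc
Lama5: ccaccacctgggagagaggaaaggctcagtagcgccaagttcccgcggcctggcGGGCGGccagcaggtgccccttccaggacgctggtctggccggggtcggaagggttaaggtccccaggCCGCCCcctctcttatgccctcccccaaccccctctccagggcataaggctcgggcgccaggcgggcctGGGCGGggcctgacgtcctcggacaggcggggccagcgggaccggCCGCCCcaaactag
Lamb2: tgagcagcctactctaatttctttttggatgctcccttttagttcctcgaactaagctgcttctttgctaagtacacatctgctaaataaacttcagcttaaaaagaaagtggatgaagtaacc
Motif letters were searched on both strands in the 250 bases before the start. The AP-1 letters TGANTCA, the TCF/LEF letters CTTTGA and the TEAD letters GGAATG had no match in the 3 windows, and the GC box GGGCGG had 4 matches before Lama5 and none before Lamb3 or Lamb2. Among 27025 windows of this length, 1 for each gene of the RefSeq promoter table, 6.87% held the AP-1 letters, 14.0% the TCF/LEF letters, 12.6% the TEAD letters and 32.9% the GC box. Of the 52 member windows, 2, 11, 5 and 27 held them, in the same order. A match describes letters only, and the lack of one says only that these letters are not in the window.

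Lamb3 encodes the laminin beta-3 chain (chromosome 1, bases 193207699 to 193343878 of GRCm38, plus strand). Its FPKM was 3.62, 3.84 and 3.33 in Control and 14.4, 14.6 and 15.3 in MMK-1 libraries. Every MMK-1 library lay far above every Control library, and the spread within each group was small beside the gap. The mean FPKM was 3.60 ± 0.254 (SD, n = 3) in Control and 14.8 ± 0.476 in MMK-1 libraries, a 4.10-fold difference. The log2 fold change in limma was 1.78 with a standard error of 0.055 and an adjusted p of 2.93e-08.

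Lama3 encodes the alpha-3 chain, which assembles with beta-3, and was far less abundant than Lamb3. It held 90, 127 and 102 fragments in Control and 12, 12 and 7 in MMK-1 libraries, with mean FPKM of 0.238 and 0.0241. Lama3 lay below the FPKM filter and was tested in a second limma fit, over all 20676 genes above 0 with a pseudocount of 0.1. Its log2 fold change in that fit was -1.44 with a standard error of 0.126 and an adjusted p of 0.000204. From summed fragments relative to library totals Lama3 was 9.94-fold higher in Control, with a 95% interval of 6.87 to 14.9. These intervals are exact binomial intervals of the 2 sums and cover counting error only. Of the exon bases of Lama3, 197 of 10745 are shared with an antisense gene, and whether counting used strand is not given in the sources used here.

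These chains of one trimer thus moved in opposite directions. The ratio of Lamb3 to Lama3 FPKM within a library was 18.0, 13.5 and 14.6 in Control and 507, 522 and 967 in MMK-1 libraries. Lamb3 was the more abundant transcript per length in every library, and the ratio was higher in every MMK-1 library. The ratios given here and for the integrin genes were chosen after the values were seen and carry no test. They do not depend on the scaling between libraries.

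Lamc1 encodes the gamma-1 chain, the common gamma chain of basement membranes. Its FPKM was 5.69, 5.54 and 5.58 in Control and 6.25, 6.36 and 6.63 in MMK-1 libraries. The groups did not overlap, but the gap was small. The log2 fold change in limma was 0.17 with an adjusted p of 0.00968, close to the median of all genes, and the call was lost with upper-quartile scaling (0.10, adjusted p of 0.0623), median centring (0.02, adjusted p of 0.682) and a correction for gene length (0.06, adjusted p of 0.316).

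Lama5 encodes the alpha-5 chain, which joins Lamc1 and either Lamb1 or Lamb2. It held 27, 19 and 14 fragments in Control and 132, 152 and 191 in MMK-1 libraries. No Control library reached the lowest MMK-1 library. In summed fragments relative to library totals the difference was 8.19-fold, with a 95% interval of 6.25 to 10.9, and the log2 fold change in the second limma fit was 1.71 with a standard error of 0.151 and an adjusted p of 0.000213. Mean FPKM stayed low, at 0.0469 in Control and 0.383 in MMK-1 libraries.

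Lamb2 encodes the beta-2 chain, and it went from near absence to a low level. It held 5, 4 and 0 fragments in Control and 97, 81 and 109 in MMK-1 libraries. The summed fragments relative to library totals differed 33.0-fold, with a wide 95% interval of 17.1 to 72.9 that the 9 Control fragments set. The log2 fold change in the second limma fit was 2.32 with a standard error of 0.146 and an adjusted p of 5.74e-05. Lamb1, the alternative beta chain, held 11, 13 and 14 fragments in Control and 19, 7 and 29 in MMK-1 libraries. Its groups overlapped, with an adjusted p of 0.485 in the same limma fit and an exact two-sided permutation p of 0.4, where the smallest p that 3 against 3 libraries allow is 0.1. The 95% interval of the MMK-1 to Control ratio of summed Lamb1 fragments, relative to library totals, was 0.973 to 2.33.

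Lama2 and Lama4 encode chains of muscle and vessel basement membranes. Lama2 held 1 fragment in each group. Lama4 held 2, 6 and 0 fragments in Control and 2, 0 and 4 in MMK-1 libraries. A difference was not detectable at this depth. Summed over the 9 laminin genes, FPKM was 14.7 to 15.9 in Control and 24.3 to 25.8 in MMK-1 libraries, and Lamb3 alone differed by more than this gap.

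**Figure D1:**
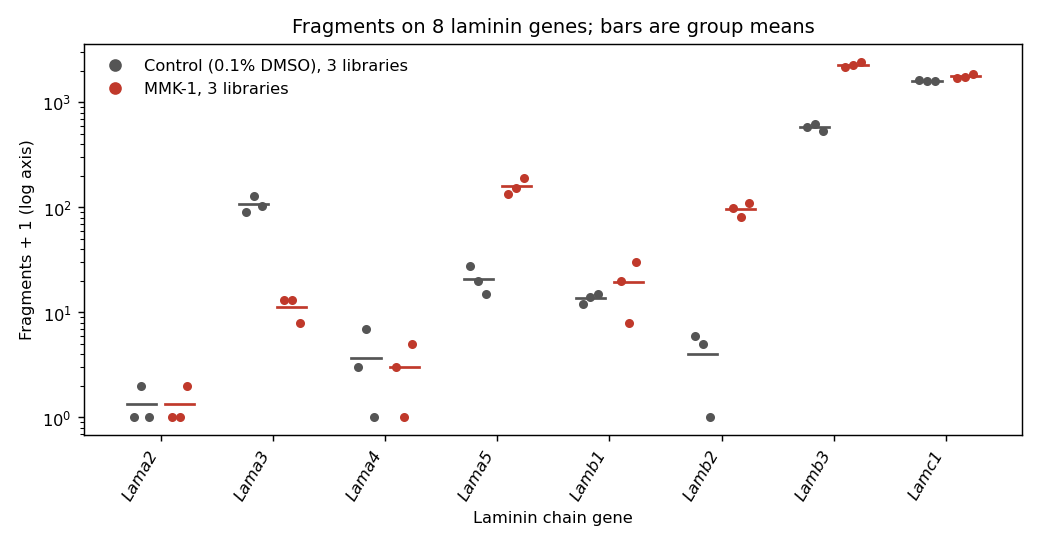
Fragments on 8 laminin genes (vertical log axis, fragments + 1) in the 3 Control and 3 MMK-1 libraries, with each point a library and each bar a group mean. Lamb3, Lama5 and Lamb2 sit higher and Lama3 lower in all MMK-1 libraries, while Lama2, Lama4 and Lamb1 overlap.

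Among the integrin genes, the 4 most abundant were Itgb1, Itgb4, Itga3 and Itga6, whose products are the main laminin receptors of epithelia. Itgb4 and Itga3 fell with MMK-1, whereas Itga6 rose. Itgb1 was slightly higher, by little more than the median gene. In Control libraries the order of mean FPKM was Itgb1, Itgb4, Itga3 and Itga6, and in MMK-1 libraries it was Itgb1, Itga6, Itga3 and Itgb4. No neighbours in either order overlapped between libraries of the same group.

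Itgb4 encodes the beta-4 chain, whose long cytoplasmic tail anchors hemidesmosomes to keratin filaments and whose only known partner is the alpha-6 chain (chromosome 11, bases 115974709 to 116008412, plus strand). Its FPKM was 36.6, 35.9 and 35.8 in Control and 19.0, 19.5 and 21.0 in MMK-1 libraries. The 3 MMK-1 libraries lay close together, well below all Control libraries. The mean was 36.1 ± 0.435 in Control and 19.8 ± 1.07 in MMK-1 libraries, and limma gave a log2 fold change of -0.83 with a standard error of 0.047 and an adjusted p of 8.43e-07. Of its 7015 exon bases, 537 are shared with a lincRNA gene on the other strand.

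Itga6 encodes the alpha-6 chain, which pairs with beta-4 or beta-1 (chromosome 2, bases 71745616 to 71858416, plus strand). Its FPKM was 19.1, 19.3 and 18.7 in Control and 29.6, 29.1 and 29.6 in MMK-1 libraries. The groups were far apart and each was tight. Limma gave a log2 fold change of 0.60 with a standard error of 0.038 and an adjusted p of 1.7e-06. The ratio of Itga6 to Itgb4 FPKM in a library was 0.523, 0.537 and 0.523 in Control and 1.56, 1.49 and 1.41 in MMK-1 libraries. Itgb4 was thus the more abundant transcript per length in all Control libraries and Itga6 in all MMK-1 libraries, a description of a ratio chosen after the values were seen.

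Itgb1 encodes the beta-1 chain, the common partner of many alpha chains. Its FPKM was 48.1, 48.0 and 46.3 in Control and 53.6, 55.9 and 56.7 in MMK-1 libraries. The groups did not overlap, and the log2 fold change in limma was 0.22 with an adjusted p of 0.00119. With median centring it was 0.07 with an adjusted p of 0.103, and the call was lost.

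Itga3 encodes the alpha-3 chain, which pairs with beta-1 and binds the laminins that contain alpha-3 or alpha-5. Its FPKM was 30.8, 31.1 and 30.2 in Control and 23.1, 22.5 and 25.1 in MMK-1 libraries. All MMK-1 libraries lay below all Control libraries, with replicate 3 nearest to them. Limma gave a log2 fold change of -0.37 with a standard error of 0.049 and an adjusted p of 0.00015. The ratio of Itga3 to Itga6 was 1.61, 1.61 and 1.62 in Control and 0.780, 0.773 and 0.849 in MMK-1 libraries.

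**Figure D2:**
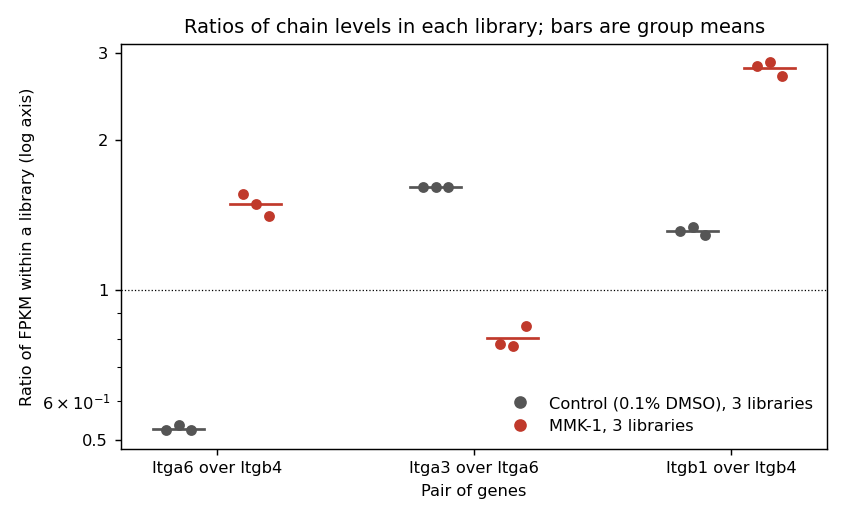
Ratios of FPKM between 2 genes within each library (vertical log axis) for 3 pairs of integrin genes, with each point a library, each bar a group mean and the dotted line a ratio of 1. Itga6 over Itgb4 lies below 1 in the 3 Control and above 1 in the 3 MMK-1 libraries, Itga3 over Itga6 changes sides the other way, and Itgb1 over Itgb4 has a mean of 1.32 in Control and 2.80 in MMK-1 libraries.

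The collagen-binding alpha chains alpha-1 and alpha-2, which pair with beta-1, were both detected. Itga2 rose from 4.67, 4.88 and 4.91 FPKM in Control to 7.53, 7.13 and 6.75 in MMK-1 libraries. The groups were clearly separate, with a log2 fold change in limma of 0.48, a standard error of 0.053 and an adjusted p of 4.59e-05. Itga1 had an FPKM of 1.42, 1.10 and 1.39 in Control and 1.63, 1.60 and 1.93 in MMK-1 libraries. Its log2 fold change in limma was 0.24 with an adjusted p of 0.0219, and the call was lost with median centring (0.09, adjusted p of 0.291), upper-quartile scaling (adjusted p of 0.053), a GC correction (0.12, adjusted p of 0.265, or 0.178 with a replicate block as well) or a length correction (0.15, adjusted p of 0.135), in both fits of every gene above 0 (adjusted p of 0.0612 and 0.0659), without Control replicate 2 (0.18, adjusted p of 0.0829) and without MMK-1 replicate 3 (0.19, adjusted p of 0.0568). Of its 18599 exon bases, 685 are shared with the gene model Gm49395.

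The alpha-v chain and its beta partners bind RGD-containing matrix proteins such as vitronectin and fibronectin. Itgav had an FPKM of 2.18, 2.21 and 2.20 in Control and 2.95, 3.33 and 2.71 in MMK-1 libraries, with a log2 fold change in limma of 0.32 and an adjusted p of 0.00221. Its call was lost with median centring (0.17, adjusted p of 0.055). Itgb5 had an FPKM of 3.11, 2.93 and 2.88 in Control and 3.91, 3.71 and 4.10 in MMK-1 libraries, with a log2 fold change in limma of 0.31 and an adjusted p of 0.000969. Both were separate between groups. Itgb6, an epithelial beta chain, had an FPKM of 1.70, 1.75 and 1.90 in Control and 1.64, 1.39 and 1.64 in MMK-1 libraries. It was not called in limma (-0.12, standard error 0.066, adjusted p of 0.119), but it was called lower with upper-quartile scaling (-0.17, adjusted p of 0.0358), median centring (-0.27, adjusted p of 0.00506), a length correction (-0.21, adjusted p of 0.0229) and a GC correction (-0.20, adjusted p of 0.0254, or 0.03 with a replicate block as well). Of the further alpha-v partners, Itgb3 held 0, 0 and 0 fragments in Control and 0, 1 and 1 in MMK-1 libraries. Itgb8 held 0, 2 and 0 in Control and 10, 4 and 3 in MMK-1 libraries, with an adjusted p of 0.101 in the second limma fit. Its summed fragments relative to library totals gave a ratio of 8.80, with an interval of 2.09 to 78.5.

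A pair of integrin genes known mainly from other tissues also fell. Itga7, the laminin-binding alpha chain of muscle, had an FPKM of 1.80, 1.73 and 1.94 in Control and 0.802, 0.881 and 0.945 in MMK-1 libraries. Its highest MMK-1 value was well below its lowest Control value, and limma gave a log2 fold change of -0.59 with an adjusted p of 3.74e-05. Itgam, the alpha-M chain of myeloid cells, had an FPKM of 2.36, 2.29 and 2.42 in Control and 0.878, 0.844 and 1.09 in MMK-1 libraries. The log2 fold change of Itgam in limma was -0.79 with an adjusted p of 9.22e-06. Of the 5024 exon bases assigned to Itgam, 3450 are shared with the overlapping gene model Gm49368 on the same strand, so its value is uncertain. Itgb2, the only beta chain that Itgam is known to pair with, held 0, 0 and 0 fragments in Control and 1, 1 and 3 in MMK-1 libraries. Of the myeloid markers, Cd68 and Csf1r were lower and Cd14 higher with MMK-1, as given above, and their part in the result was not tested. Itga7 and Itgam passed the FPKM filter through the Control libraries, where they are high, and both were also called lower in the limma fit of every gene above 0 with a pseudocount of 0.1 (adjusted p of 0.00054 for Itga7 and 0.000293 for Itgam).

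The other leukocyte integrin genes were at a few fragments. Itgal, the alpha-L chain of lymphocytes, held 2, 2 and 4 fragments in Control and 15, 9 and 13 in MMK-1 libraries. Its groups were separate, and the second limma fit gave a log2 fold change of 0.52 with an adjusted p of 0.00473. In summed fragments relative to library totals Itgal was 4.79-fold higher, with an interval of 2.19 to 11.9. Its partner Itgb2 is given above. Itgae held 6 fragments in Control and 5 in MMK-1 libraries in all, and its partner Itgb7 held 2, 2 and 9 in Control and 14, 10 and 6 in MMK-1 libraries, with overlapping groups. Itga4, the other partner of Itgb7, held 4, 1 and 1 in Control and 3, 5 and 9 in MMK-1 libraries. Itgax was listed at 0 in every library.

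Itga10 and Itga2b lay just below the filter. Itga10, a collagen-binding alpha chain of cartilage, had an FPKM of 0.694, 0.708 and 0.541 in Control and 0.743, 0.911 and 0.742 in MMK-1 libraries, with an adjusted p of 0.228 in the second limma fit. Of its 5186 exon bases, 1739 are shared with the gene model Gm42957. Itga2b, the alpha chain of platelets, held 118, 100 and 70 fragments in Control and 61, 67 and 100 in MMK-1 libraries. Its groups overlapped, with an exact two-sided permutation p of 0.4. Itga5, the fibronectin receptor chain, and Itga9 each held at most 24 fragments in any library, and the groups of both overlapped.

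Over the 24 genes with an integrin-type symbol, summed FPKM was 154 to 156 in Control and 149 to 156 in MMK-1 libraries, so the total overlapped. The overlap came from MMK-1 replicate 3 alone (156), and MMK-1 replicates 1 and 2 (149 and 150.2) lay below every Control library. Itgb3bp, which is no integrin, had an FPKM of 2.86, 3.35 and 3.87 in Control and 2.57, 2.75 and 2.48 in MMK-1 libraries. Its log2 fold change in limma was -0.27 with an adjusted p of 0.0174, and the call was lost without Control replicate 3 (-0.19, adjusted p of 0.0592), in both fits of every gene above 0 (adjusted p of 0.0665 and 0.053) and in both limma-voom fits (adjusted p of 0.0509 and 0.0602).

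**Figure D3:**
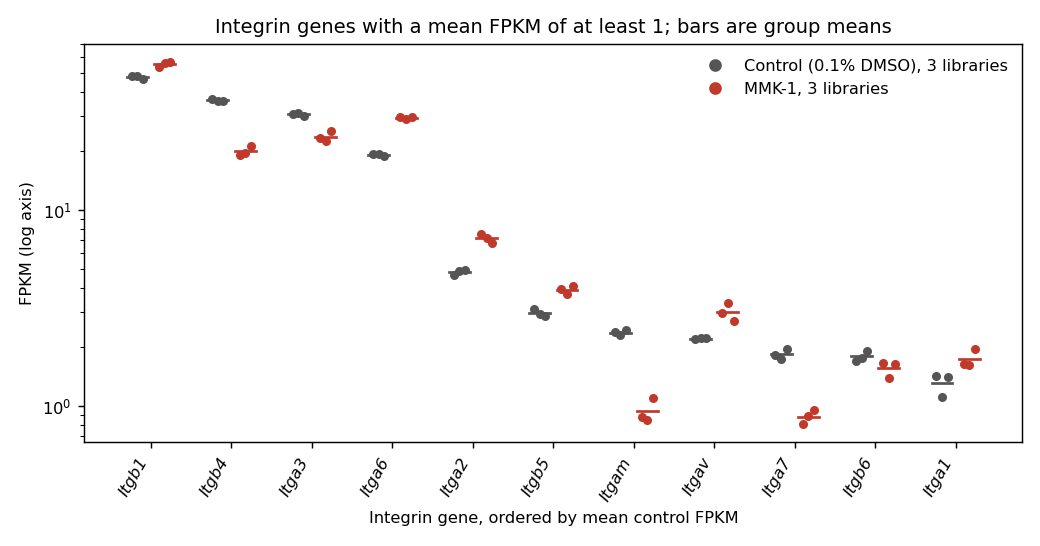
FPKM (vertical log axis) of the 11 integrin genes with a mean of at least 1, in order of their Control mean, with each point 1 of 3 libraries and each bar a group mean. Itgb4, Itga3, Itgam and Itga7 are lower and Itga6 and Itga2 higher in every MMK-1 library, while Itgb6, Itga1 and Itgb1 are closer between groups.

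**Figure D4:**
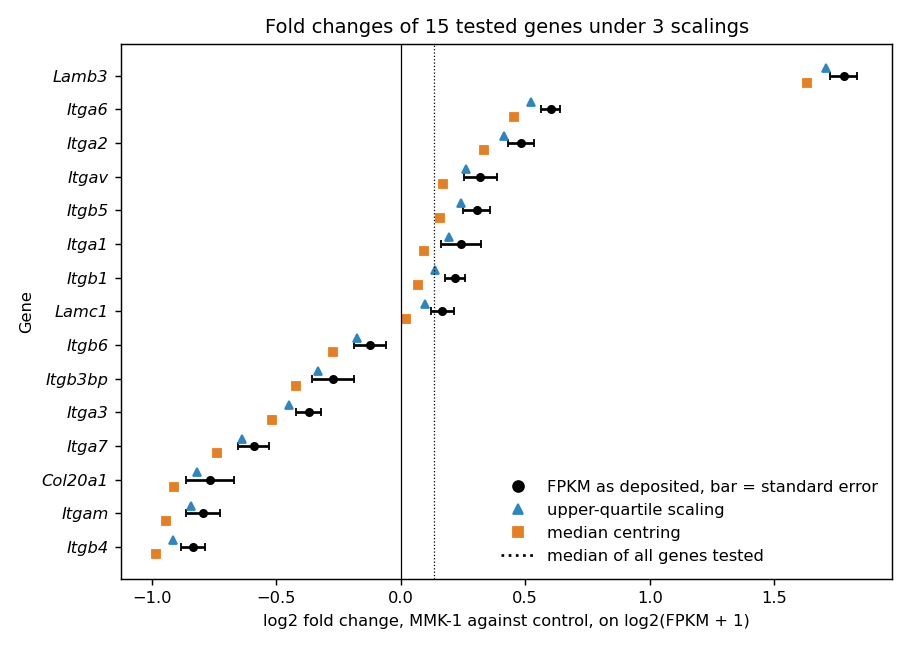
Log2 fold changes of MMK-1 against Control on log2(FPKM + 1) for 15 of the 16 tested genes, as deposited (points, with bars for the standard error), with upper-quartile scaling (triangles) and with median centring (squares); the dotted line is the median of all genes tested, 0.13. None of the 15 changes sign with the scaling, and Lamc1, Itgb1 and Itga1 come closest to 0 after median centring.

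Collagen genes were nearly silent in these organoids. Of the 38, 3 (Col22a1, Col6a4 and Col6a6) were listed at 0 in every library, 34 had a mean FPKM below 0.1, and 29 held fewer than 10 fragments in every library. For a gene with 0 fragments in a library, up to 3 fragments are allowed by counting error. Summed over all collagen genes, FPKM was 3.41 to 3.81 in Control and 2.22 to 3.01 in MMK-1 libraries, and the gene with the largest part of it in every library was Col20a1.

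Col20a1 encodes a little-studied collagen of the group that decorates fibrils, and it was the single collagen gene with a mean FPKM above 1 (chromosome 2, bases 180986535 to 181018363, plus strand). Its FPKM was 2.90, 2.60 and 2.55 in Control and 0.861, 1.31 and 1.37 in MMK-1 libraries. The groups did not overlap, and MMK-1 replicate 1 was the lowest library. The mean was 2.28-fold higher in Control, and limma gave a log2 fold change of -0.76 with a standard error of 0.096 and an adjusted p of 0.000113.

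In the second limma fit, over every gene above 0, 43.7% of all genes were called, 28.3% higher and 15.3% lower. Of the 67 members above 0, 14 were called higher, 7 lower and 46 were not called in that fit. At a fold change of 2 in that fit 4 were higher and 4 lower, beside 5.31% and 3.96% of all genes. In limma-voom on fragments, over genes with 10 fragments in 3 libraries, 27 members were tested and 11 were higher and 7 lower, beside 68.3% of all genes called, 45.0% higher and 23.4% lower. At a fold change of 2 it gave 4 higher and 5 lower members, beside 10.5% and 7.01% of all genes. Among the collagens of the second fit 4 were higher and 1, Col20a1, was lower. Col26a1 was the clearest of those that rose: it held 4, 16 and 17 fragments in Control and 62, 59 and 69 in MMK-1 libraries. All MMK-1 libraries were far above the highest Control library, with a log2 fold change of 1.59, a standard error of 0.226 and an adjusted p of 0.00166 in that limma fit. Its summed fragments relative to library totals were 5.31-fold higher, with an interval of 3.72 to 7.78.

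The other 3 were at very few fragments, and their calls depended on single libraries. Col9a3, a chain of cartilage collagen, held 4, 3 and 2 fragments in Control and 9, 5 and 8 in MMK-1 libraries, and 234 of its 3853 exon bases are shared with Tcfl5 on the other strand. Its adjusted p of 0.028 in the second limma fit became 0.0956 without Control replicate 3. It also passed 0.05 without Control replicate 2, MMK-1 replicate 1 or MMK-1 replicate 3. Col1a1, the main chain of type I collagen and a mesenchymal marker, held 5, 7 and 4 in Control and 8, 11 and 15 in MMK-1 libraries. Its adjusted p of 0.047 in the second limma fit became 0.129 without Control replicate 3. It passed 0.05 without any other single library but MMK-1 replicate 1, and was 0.0572 with upper-quartile scaling. Col28a1 held 0, 1 and 1 fragments in Control and 6, 5 and 3 in MMK-1 libraries. Its ratio of summed fragments relative to library totals was 7.24, with an interval of 1.66 to 65.7. The adjusted p of 0.0222 of Col28a1 in the second limma fit became 0.0596 without Control replicate 1 and 0.0562 without MMK-1 replicate 2. Beside Col1a1, its partner Col1a2 held 1, 5 and 4 fragments in Control and 4, 3 and 5 in MMK-1 libraries, and Col3a1 held 1, 3 and 5 in Control and 3, 3 and 0 in MMK-1 libraries. Both overlapped between groups. Col9a1, a partner of Col9a3, held 1, 0 and 1 fragments in Control and 1, 10 and 9 in MMK-1 libraries and was not called (adjusted p of 0.0877 in the second limma fit).

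The chains of the basement membrane network were close to absent as transcripts. Col4a1 held 5, 2 and 3 fragments in Control and 5, 5 and 10 in MMK-1 libraries. Its pair Col4a2, transcribed from the same promoter region in the opposite direction, held 8, 4 and 2 in Control and 2, 7 and 5 in MMK-1 libraries. The second limma fit gave adjusted p of 0.167 for Col4a1 and 0.969 for Col4a2. Of the other type IV chains in the table, Col4a4 held 1 fragment in each group, and Col4a5 held 4 in Control and 2 in MMK-1 libraries. At this depth a change was not detectable for any of them.

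Col7a1, the anchoring fibril collagen beneath hemidesmosomes, had the highest mean FPKM over the 6 libraries among collagens after Col20a1, though Col26a1 was above it in the MMK-1 mean (0.435 against 0.344). It held 91, 125 and 97 fragments in Control and 106, 95 and 146 in MMK-1 libraries. The groups overlapped, with an exact two-sided permutation p of 0.5, and the summed fragments relative to library totals gave a ratio of 1.15 with an interval of 0.982 to 1.34. Col17a1, the transmembrane collagen of hemidesmosomes, held 1, 0 and 1 fragments in Control and 2, 1 and 1 in MMK-1 libraries. Col18a1, a basement membrane collagen, held 32, 28 and 23 in Control and 16, 24 and 20 in MMK-1 libraries, with overlapping groups and an interval of 0.528 to 1.06 for the ratio. Col11a2 held 34, 30 and 28 in Control and 39, 34 and 50 in MMK-1 libraries. Its Control libraries did not overlap with the MMK-1 libraries in FPKM, but its adjusted p in the second limma fit was 0.149. Col8a1 held 26, 23 and 9 fragments in Control and 11, 10 and 9 in MMK-1 libraries, and it was not called (adjusted p of 0.19 in the same limma fit).

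**Figure D5:**
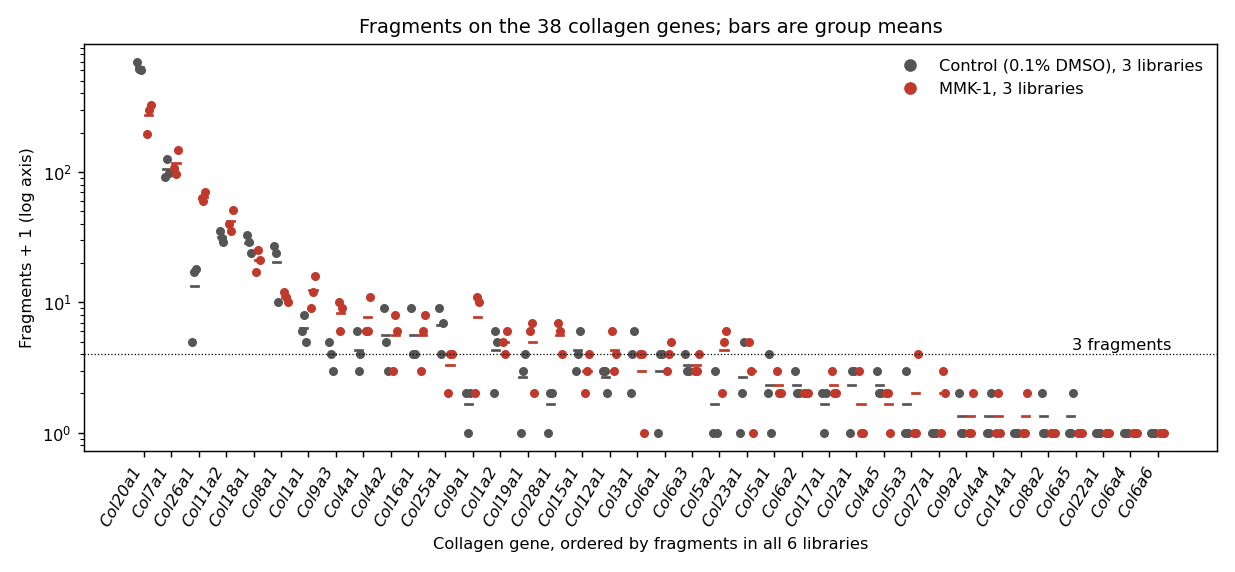
Fragments on the 38 collagen genes (vertical log axis, fragments + 1), in order of their fragments over all 6 libraries, with each point a library, each bar a group mean and the dotted line at 3 fragments. Col20a1 is lower and Col26a1 higher in all MMK-1 libraries, and most of the other genes sit at a few fragments in both groups.

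Genes that work with these chains were described from a list of 75, of which 71 were in the table and 38 had a mean FPKM of at least 1. The list holds basement membrane partners, other matrix receptors, hemidesmosome and focal adhesion genes, collagen-processing genes, and matrix proteases with their inhibitors. In limma 19 were higher and 6 lower, beside 48.5% and 24.7% of all genes tested, and 13 were not called, with a median log2 fold change of 0.13, as for all genes tested. With median centring the counts were 17 and 17, beside 33.5% and 37.8% of all genes tested. At a fold change of at least 2, 5 were higher and 1 was lower, beside 3.39% and 3.65%.

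The 5 were Mmp7, Timp3, Hspg2, P4ha2 and Bcam. Mmp7, the matrix protease of Paneth cells that activates defensins, had a mean FPKM of 1.33 ± 0.243 in Control and 6.98 ± 0.330 in MMK-1 libraries, with a log2 fold change in limma of 1.78 and an adjusted p of 1.97e-07. Hspg2, which encodes the basement membrane proteoglycan perlecan, went from 0.342 ± 0.0331 to 2.08 ± 0.0750 FPKM, with a log2 fold change in limma of 1.20 and an adjusted p of 4.04e-07. Timp3, a matrix-bound inhibitor of metalloproteases, went from 0.219 ± 0.0203 to 1.85 ± 0.0588 FPKM, with a log2 fold change in limma of 1.22 and an adjusted p of 3.45e-07. Hspg2 and Timp3 passed the filter only through the MMK-1 libraries, where they are high, so their place among the 5 rests on that filter. In the limma fit of every gene above 0 with a pseudocount of 0.1, which has no such filter, their log2 fold changes were 2.30 (adjusted p of 2.52e-05) and 2.61 (adjusted p of 1.72e-05). Bcam encodes a receptor for the laminin alpha-5 chain, and it went from 1.79 ± 0.357 to 4.66 ± 0.329 FPKM, with a log2 fold change in limma of 1.03 and an adjusted p of 1.3e-05. P4ha2, a subunit of the collagen proline hydroxylase, went from 8.23 ± 0.869 to 18.7 ± 0.628 FPKM, with a log2 fold change in limma of 1.10 and an adjusted p of 1.62e-06.

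The lower genes began with Bmp1, Nid2 and P4hb. Bmp1 encodes a protease that processes procollagens and laminin chains, and its FPKM was 3.94, 4.03 and 3.80 in Control and 0.982, 1.21 and 1.26 in MMK-1 libraries, with a log2 fold change in limma of -1.20 and an adjusted p of 6.92e-07. Nid2 encodes nidogen-2, a linker of laminin and type IV collagen, and its mean went from 7.43 ± 0.252 to 3.92 ± 0.106 FPKM, with a log2 fold change in limma of -0.78 and an adjusted p of 1.51e-06. P4hb, a disulphide isomerase that is also the second subunit of the proline hydroxylase, went from 1215 ± 11.1 to 796 ± 40.6 FPKM, with a log2 fold change in limma of -0.61 and an adjusted p of 3.87e-06. P4ha2 and P4hb therefore moved in opposite directions. P4ha1, named after its values were seen, was also higher, from a mean of 11.8 to 15.6 FPKM. Its log2 fold change in limma was 0.38 with an adjusted p of 0.00013. P4ha3 was listed at 0 in every library.

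The remaining partners are named after their values were seen. Of the hemidesmosome genes, the plakins Plec and Dst, whose products can bind the beta-4 tail, were lower. Their log2 fold changes in limma were -0.36 (adjusted p of 7.99e-05) and -0.47 (adjusted p of 7.31e-05). FPKM is given per gene, so forms of Dst are not told apart. The tetraspanin Cd151 stood at 48.7 FPKM in Control and 48.8 in MMK-1 libraries. Dag1, the laminin receptor dystroglycan, was higher, from 45.9 ± 0.271 to 74.3 ± 1.32 FPKM, with a log2 fold change in limma of 0.68 and an adjusted p of 5.89e-07. Fermt1, the epithelial kindlin that activates integrins, was higher, with a log2 fold change in limma of 0.75 and an adjusted p of 4.04e-06. Tln1, the talin that activates them with it, was not called, with a log2 fold change in limma of 0.08 and an adjusted p of 0.185. Lims1, a partner of integrin-linked kinase, had an FPKM of 4.65, 4.57 and 4.78 in Control and 10.5, 10.2 and 6.10 in MMK-1 libraries, so that MMK-1 replicate 3 lay nearer to Control than to the other MMK-1 libraries.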

How the data were processed

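RNA of 3 Control and 3 MMK-1 organoid libraries was sequenced as 150-bp paired-end reads on an Illumina NovaSeq instrument. The submitters' processing notes list HISAT2, HTSeq, R 3.2.0, DESeq2 and mm10, with no roles. The authors deposited FPKM per gene, with NCBI symbols. The annotation, strandedness and any scaling between libraries are not given in the sources used here. Coordinates and exon overlaps come from GENCODE vM21 on GRCm38.

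Fragments per gene were recovered from the steps of the deposited FPKM values. Fragments on listed genes made up at least 99.83% of each library total. Recovery and fits were tested on simulated data. Differences were tested with limma 3.58.1 in R 4.3.3, as limma-trend on log2(FPKM + 1) for genes whose mean FPKM reached 1. Members below this filter were tested in a fit of every gene above 0 with a pseudocount of 0.1. Adjusted p are Benjamini-Hochberg over all genes of a fit. Tables and plots used scipy 1.17.1, pandas 2.3.3, numpy 2.4.6 and matplotlib 3.10.9 in Python 3.11.15.

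The members and lists were chosen with earlier results of these data known. Members named are the 16 tested, except 1 that is counted but not reported here, those below the filter that were called without overlap (7 higher, 1 lower), and the partner chains of both, with further members named after their values were seen. Of the partner list, the 3 largest changes in each direction and those past a fold change of 2 are named. Alternatives covered scaling, filter, pseudocount, limma-voom on fragments, GC and length corrections by local regression with a span of 0.3, a replicate block and leaving out each library. Replicates are labelled as separate samples. The paper's statistics section speaks of independent experiments in general, but whether these libraries came from separate cultures or different mice is not given, and p-values measure the spread between these samples.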

Additional observations from a re-analysis of the deposited data

How the results depend on the processing

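Over the alternatives of 24 named members and 8 named partner genes, 463 of 500 values kept their direction and call, 32 lost the call, 5 gained it and none changed direction. The number of members higher at an adjusted p of at most 0.05 was 8 and became 4 with median centring. It was 13 over every gene above 0 and 14 over these with a pseudocount of 0.1. Of all genes, 48.5% were higher as deposited, 33.5% with median centring and 28.3% over every gene above 0 with a pseudocount of 0.1. No share is given beside the 13. The number higher at a fold change of at least 2 was 1, beside 3.39% of all genes tested. It became 4 over every gene above 0 with a pseudocount of 0.1, beside 5.31% of all genes. With limma-voom at 10 fragments in 3 libraries it was 4, beside 10.5%. At a fold change of 1.5 it was 2, with no share given. The number lower at a fold change of at least 2 was 0 (7 at an adjusted p of at most 0.05). It became 1 with median centring, 3 with a pseudocount of 0.1 and 4 over every gene above 0 with that pseudocount. It was 4 with limma-voom on the fragments of the tested genes, 5 with limma-voom at 10 fragments in 3 libraries, and 5 at a fold change of 1.5. Of all genes, 3.65% were lower at a fold change of 2 as deposited. The share was 3.96% over every gene above 0 with a pseudocount of 0.1 and 7.01% with limma-voom at 10 fragments in 3 libraries. No share is given for the other settings, so their counts are not set against all genes. Partner genes lower numbered 6 and became 10 with a length correction, 11 with upper-quartile scaling and 17 with median centring, beside 27.2%, 31.2% and 37.8% of all genes tested under these settings (24.7% as deposited). Apart from fewer or more genes tested and the pseudocount itself, the cause was not tested.

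Leaving out 1 library at a time gave 7 to 8 members higher, 6 to 7 lower, 1 higher and 0 lower at a fold change of 2, 18 to 19 partner genes higher and 6 to 7 lower. Replicate numbers did not pair the samples: correlations of deviations between same-numbered libraries were 0.025, -0.040 and 0.028. With a replicate block 8 members were higher and 7 lower, 1 and 0 at a fold change of 2, and 19 partner genes were higher and 6 lower. With the replicate block and a GC correction these counts were 7, 8, 1, 0, 18 and 6. No shares of all genes are given beside the counts with a library left out or with a replicate block. Those counts show only how far the numbers moved. A linear FPKM fold can pass 2 where the log2(FPKM + 1) value does not. For the 29 collagens with fewer than 10 fragments in every library, depth limits what can be seen. Upper-quartile scaling of the members under the FPKM filter was added after the data were seen, and it ended the call of Col1a1.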

Other observations

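Partner genes under the FPKM filter, named after their values were seen, also differed. Npnt, which encodes the integrin ligand nephronectin, held 24, 16 and 14 fragments in Control and 140, 120 and 109 in MMK-1 libraries, with a log2 fold change of 2.02 and an adjusted p of 0.000195 in the limma fit of every gene above 0 with a pseudocount of 0.1. Mmp14, a membrane-bound collagenase, held 3, 3 and 3 fragments in Control and 34, 34 and 33 in MMK-1 libraries, with a log2 fold change of 1.51 and an adjusted p of 4.4e-05 in the same limma fit. Nid1, the other nidogen, held 190, 151 and 173 fragments in Control and 51, 36 and 38 in MMK-1 libraries. Its log2 fold change was -1.57 with an adjusted p of 0.00045 in the same limma fit, so that both nidogen genes fell. Plod2, a lysyl hydroxylase of collagen chains, and P3h4, a member of the prolyl 3-hydroxylase family, rose by log2 fold changes of 1.02 (adjusted p of 0.00145) and 2.14 (adjusted p of 0.000179) in that limma fit, while the collagen chaperone Serpinh1 held at most 2 fragments in any library.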
